A study of Homo sapiens with 36 samples.

Results

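HK-2 is an immortalized human cell line from the proximal tubule, the stretch of kidney epithelium that recovers glucose, amino acids and salt from the filtrate. The data described here are those of HK-2 cells that received only control vehicle, at 48 h against 12 h. They were chosen by their descriptions in the sample labels, and they make up 6 of the 36 single-colour arrays of the series, 3 at each time. The cells had been seeded in wells 24 h before vehicle was added, close to confluence, in a defined medium with epidermal growth factor, hydrocortisone, insulin, transferrin and selenite. The labels name neither the vehicle nor whether the medium was changed between the 2 times. They call the 3 samples of each group biological replicates, and nothing more is said of separate cultures. The p-values measure the spread between such samples within a group, pooled over the 12 groups of all 36 arrays. For comparison, 12 arrays hold cells given CdCl or Di for 12 h or 48 h in the same set, names that the labels do not spell out. A second set holds cells given Kbr or its own vehicle for 24 h or 48 h, and its 6 vehicle arrays share no array with the comparison of 48 h with 12 h.

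As background, when amino acids run short or proteins misfold in the endoplasmic reticulum (ER), kinases phosphorylate the translation factor eIF2-alpha, and the transcription factor ATF4 is made. ATF4 switches on amino acid transporters and synthetic enzymes together with the factors DDIT3 (also known as CHOP) and ATF3. A second arm of the response to misfolded protein, through ATF6, ERN1 (IRE1) and XBP1, raises ER chaperones. Dividing cells make DNA replication genes through E2F factors and mitotic genes through the MYBL2 and FOXM1 complexes, and both sets go down when cells leave the cycle.

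The values are log2 expression levels per probe set, so a difference of 1 is a 2-fold change, and values under about 4 are near the background floor. Within either vehicle group the arrays correlated at 0.993 to 0.995 (Pearson's r over the 11092 genes tested). Arrays of 12 h correlated with arrays of 48 h at 0.955 to 0.959. Between 39.1% and 39.8% of the probe sets lay above the floor on an array. For beta-actin, the probe set at the 3′ end exceeded the one at the 5′ end by 1.84 ± 0.14 (SD, n = 3) at 12 h and 1.5 ± 0.12 (SD, n = 3) at 48 h, a gap that depends on RNA quality. In vehicle cells of the Kbr set it was 0.87 ± 0.22 at 24 h and 0.90 ± 0.18 at 48 h (SD, n = 3). For GAPDH the gap was 0.10 at 12 h and -0.05 at 48 h, and -0.09 and -0.08 in the Kbr set. The part of these differences in the results was not tested. With 3 arrays a group, precision is limited by their number.

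Among 11092 genes tested, 5064 (45.7%) differed between 48 h and 12 h in limma's moderated test at an adjusted p under 0.05. Of these, 2032 (18.3%) were higher and 3032 (27.3%) lower at 48 h. Each count of list members below is to be set against these shares. With each array centred on its median, which shifts every difference by 0.09, 2591 were higher and 2476 lower. A change of at least 2-fold was reached by 504 higher genes (4.54%) and 776 lower genes (7%). The 3 arrays of 48 h lay wholly above those of 12 h for 2832 genes (25.5%) and wholly below for 4051 (36.5%), and the median difference over all genes was -0.07. Against this background, 4 gene groups stood far from the middle: ATF4 targets and ER chaperones were nearly all higher, and DNA replication and mitotic genes were nearly all lower.

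**Figure D1:**
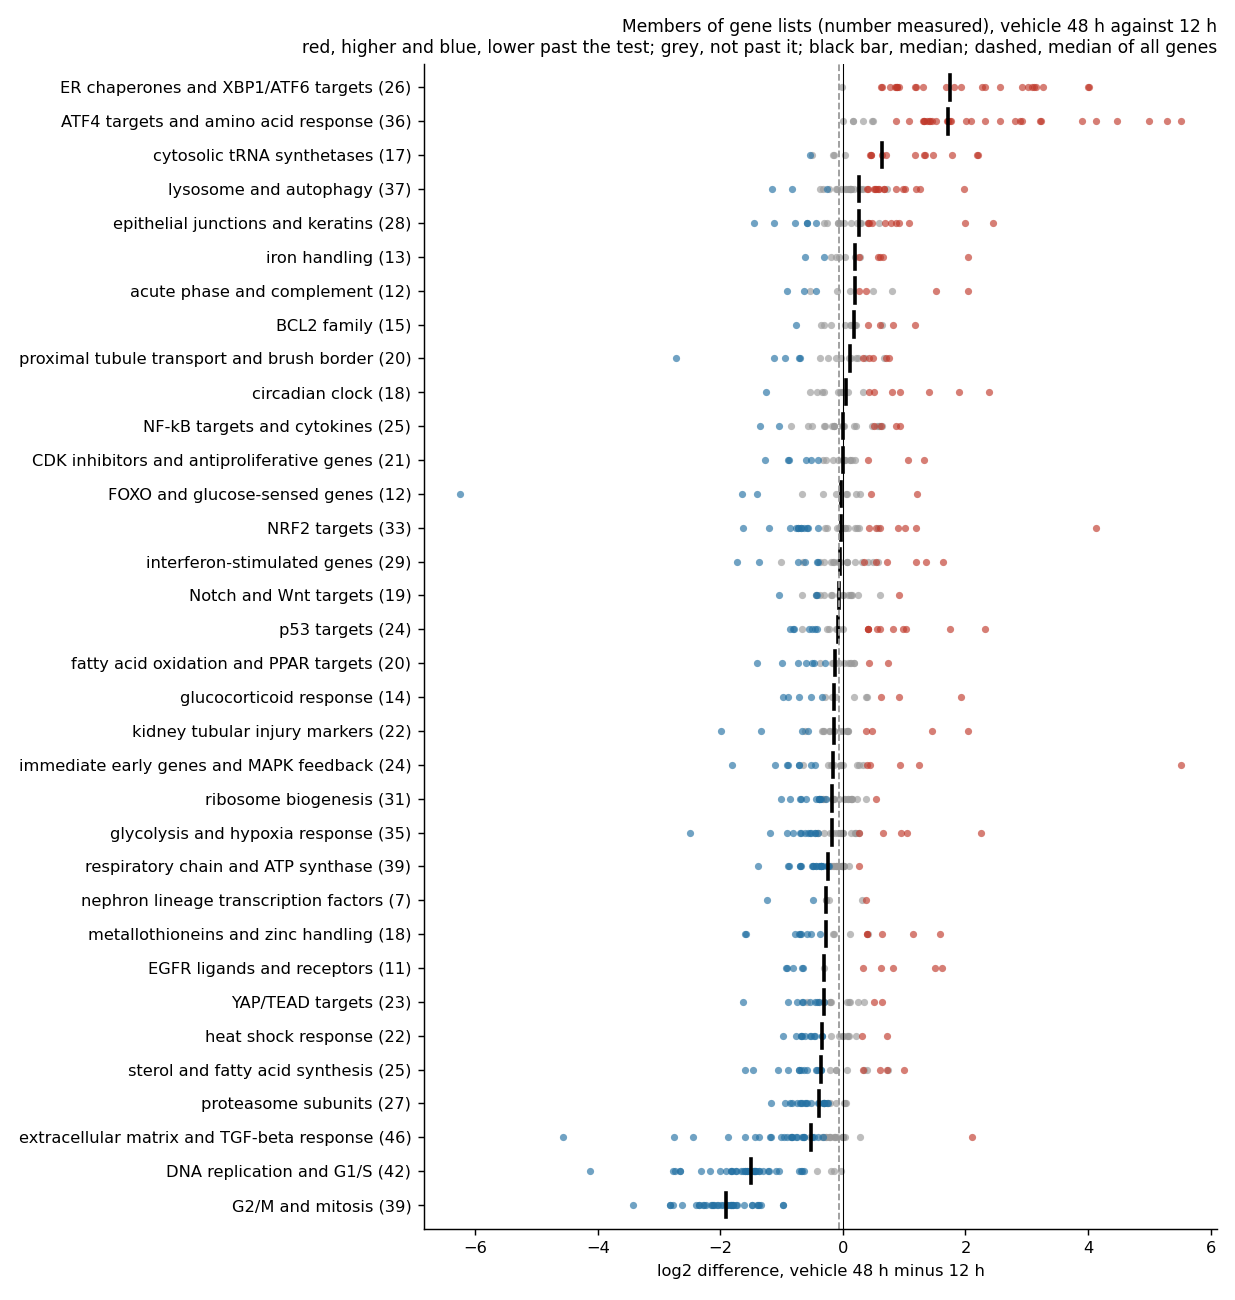
Log2 difference between vehicle cells at 48 h and 12 h (horizontal axis) for each measured member of the gene lists with at least 7 measured genes, one row a list, with the number measured in brackets. Red points were higher and blue points lower past the test, grey points did not pass, black bars are list medians and the dashed line is the median of all genes (-0.07). ER chaperones (median 1.75) and ATF4 targets (1.72) lie to the right and mitotic genes (-1.90) and DNA replication genes (-1.5) to the left.

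Targets of ATF4 and of the amino acid response were higher at 48 h in 30 of the 36 measured members (83.3%) and lower in none, with a median difference of 1.72. The other 6, which include DDIT4, CBS and PSAT1, had differences from 0.01 to 0.49 that did not pass. The list held the largest rises on the arrays. ATF3, a stress-induced member of the ATF family that also represses transcription, read 4.54, 4.88 and 3.96 at 12 h and 9.89, 9.96 and 10.10 at 48 h. The lowest 48 h array lay far above the highest 12 h array, and the difference was 5.52 ± 0.69 (SE), or 46.0-fold, with an adjusted p of 2.33e-07.

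DDIT3, a factor that promotes cell death when ER stress is prolonged, read 8.26, 7.93 and 8.02 at 12 h and 13.00, 13.11 and 13.06 at 48 h. This gap of 4.99 ± 0.58 (SE; 31.7-fold; adjusted p 7.35e-08) was many times the spread within either group. INHBE, a subunit of activin and a secreted product of this response, read 7.38, 7.31 and 7.33 at 12 h and 12.58, 12.77 and 12.56 at 48 h, a rise of 5.30 ± 0.70 (SE; adjusted p 5.51e-07). NUPR1, a small stress-induced nuclear protein, was near the floor at 12 h (2.85, 3.37 and 3.75) and well above it at 48 h (7.52, 8.11 and 7.75). It was therefore at least 13.8-fold higher (adjusted p 1.56e-10).

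The message of ATF4 itself rose by less than those of its largest targets. It read 11.56, 11.51 and 11.57 at 12 h and 13.34, 13.33 and 13.15 at 48 h, a difference of 1.72 ± 0.09 (SE; adjusted p 1.79e-14). Feedback and effector genes rose too: TRIB3, a pseudokinase that dampens ATF4 and AKT signalling, by 2.10 ± 0.22 (SE), and CHAC1, which breaks down glutathione, by 2.57 ± 0.51 (SE). CHAC1 read 4.21, 4.24 and 3.71 at 12 h against 6.87, 6.96 and 6.05 at 48 h, with no overlap.

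Transporters and enzymes of amino acid supply moved with the regulators. SLC7A11, which brings in cystine for glutathione, read 6.27, 6.21 and 6.69 at 12 h and 10.37, 10.78 and 10.41 at 48 h, a rise of 4.13 ± 0.43 (SE; adjusted p 8.87e-09). Its partner SLC3A2, the heavy chain shared by several exchangers, rose by 3.23 ± 0.32 (SE), from a mean of 7.60 to 10.83. ASNS, asparagine synthetase, read 9.08, 8.99 and 8.99 at 12 h and 11.82, 11.96 and 11.94 at 48 h, which was 7.40-fold higher (adjusted p 1.55e-06). The mitochondrial folate enzyme ALDH1L2 rose by 3.89 ± 0.47 (SE), from 5.03, 5.39 and 5.23 to 9.28, 9.18 and 8.88.

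Cytosolic tRNA synthetases, which load amino acids onto tRNA and are partly ATF4 targets, were higher in 12 of 17 measured members (70.6%) and lower in 1, HARS1 (-0.54), with a median of 0.63. WARS1 for tryptophan read 9.39, 9.48 and 9.63 at 12 h and 11.72, 11.66 and 11.75 at 48 h (2.21 ± 0.20, SE). AARS1 for alanine rose by 2.19, SARS1 for serine by 1.78, CARS1 for cysteine by 1.46 and GARS1 for glycine by 1.35. The synthetases for lysine, arginine and valine (KARS1, RARS1 and VARS1) had differences of -0.15, -0.16 and -0.50 that did not pass, so the members did not all move one way.

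The promoters of 3 genes of this list held the composite element at which ATF4 binds with a C/EBP partner. The element was searched as TGATGNAA on both strands in the 250 bases before the RefSeq start (GRCh38.p14). It was in 3 of the 29 listed genes with a promoter in the table (10.3%), against 129 of 9184 tested genes (1.40%) and 870 of 27305 promoters of all genes (3.19%). The list was drawn up as ATF4 targets, so its share is no independent evidence. Over all 129 tested genes with the element, 27.1% were higher and 27.9% lower. Of all tested genes with a promoter, 18.2% were higher and 27.8% lower. Holders thus rose and fell in like numbers, and only their share higher lay above that of all tested genes. The windows of the 3 listed holders, all of which rose, are shown. Capitals mark the match, which is on the opposite strand in CHAC1. The windows are chr1:212565191-212565248 (plus strand) for ATF3, chr7:97872444-97872501 (minus strand) for ASNS and chr15:40953237-40953294 (plus strand) for CHAC1.
ATF3: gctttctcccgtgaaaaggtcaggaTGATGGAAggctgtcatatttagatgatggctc
ASNS: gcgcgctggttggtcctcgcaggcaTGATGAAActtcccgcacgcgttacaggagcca
CHAC1: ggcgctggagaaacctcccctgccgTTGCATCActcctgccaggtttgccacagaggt

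ER chaperones and targets of XBP1 and ATF6 were higher in 25 of 26 measured members (96.2%), with a median of 1.75. The remaining one, DERL1 of the ER export channel, differed by -0.02. HSPA5, the main ER chaperone (BiP), was already one of the brightest signals and read 13.49, 13.59 and 13.56 at 12 h and 15.42, 15.40 and 15.28 at 48 h. It rose by 1.82 ± 0.28 (SE; 3.52-fold; adjusted p 6.47e-06), with no overlap of the groups.

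Larger changes were seen in its cofactors and in ER-associated degradation. SDF2L1, a partner of BiP and its DNAJ proteins, read 7.37, 6.89 and 7.33 at 12 h and 11.23, 11.15 and 11.26 at 48 h, a rise of 4.02 ± 0.53 (SE; 16.2-fold). HERPUD1, which recruits misfolded proteins for degradation, went from 10.70, 10.61 and 10.54 to 13.94, 13.92 and 13.80 (3.27 ± 0.47, SE; adjusted p 2.04e-06). ERO1B, an oxidase that drives disulfide formation, rose by 4.0 ± 0.50 (SE), from 5.06, 4.25 and 5.19 to 8.97, 8.69 and 8.83.

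The sensors and regulators of the response were among the members that rose. ERN1, the sensor whose nuclease splices XBP1 mRNA, read 7.03, 6.99 and 7.01 at 12 h and 10.15, 10.27 and 10.07 at 48 h (3.16 ± 0.47, SE). DNAJB9, a target of spliced XBP1, rose by 3.11 ± 0.44 (SE). XBP1 rose by 1.68 and ATF6 by 0.91, while the chaperones of the calnexin cycle, CANX (0.77) and CALR (0.62), had some of the smallest rises of the list.

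Several of these promoters held the ER stress element, at which ATF6 and the CCAAT-binding factor NF-Y sit side by side. It was searched on both strands as CCAAT, then any 9 bases, then CCACG, so every match also holds the CCAAT motif. It was in 7 of the 22 listed genes with a promoter (31.8%), against 13 of 9184 tested genes (0.142%) and 22 of 27305 promoters (0.0806%). CCAAT alone was in 20 of those 22 (90.9%) and in 35.7% of tested genes and 33.0% of all promoters. Of the 13 tested genes with the element, 12 were higher at 48 h, 0 lower, and 1, TMEM120A, did not pass (-0.40). Of all tested genes with a promoter, 18.2% were higher. The 7 listed genes are among these 13. Their list was drawn up as targets of XBP1 and ATF6, with earlier results known. Its share with the element and the rise of its members are therefore no independent evidence. Outside the list, FICD, an enzyme that modifies BiP, rose by 3.03 and SERP1, which stabilizes ER membrane proteins, by 1.66. ALG12, a glycosylation enzyme, rose by 1.6, EIF2A by 0.83 and TRIM5 by 0.61, and TMEM120A was the remaining holder there.

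The windows below show the element in members that span the range of changes, with the match in capitals (reversed in CRELD2, ERO1B and CALR). They are chr9:125241366-125241434 (minus strand) for HSPA5, chr22:28800578-28800646 (minus strand) for XBP1, chr22:49918529-49918597 (plus strand) for CRELD2, chr1:236282158-236282208 (minus strand) for ERO1B and chr19:12938359-12938427 (plus strand) for CALR. Counted from the RefSeq start, the match began at position -66 in HSPA5 and -52 in XBP1, against -243 in ERO1B and -225 in CALR.
HSPA5: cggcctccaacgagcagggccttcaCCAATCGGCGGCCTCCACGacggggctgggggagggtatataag
XBP1: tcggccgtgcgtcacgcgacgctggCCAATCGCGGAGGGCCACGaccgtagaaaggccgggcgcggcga
CRELD2: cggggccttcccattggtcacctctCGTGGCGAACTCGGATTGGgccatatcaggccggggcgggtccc
ERO1B: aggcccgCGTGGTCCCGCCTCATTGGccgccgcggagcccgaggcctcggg
CALR: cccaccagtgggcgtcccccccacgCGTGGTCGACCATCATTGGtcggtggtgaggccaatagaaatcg

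Genes of DNA replication and the G1/S transition were lower at 48 h in 38 of 42 measured members (90.5%) and higher in none, with a median of -1.5. The 4 that did not pass were CDC6 (-0.03), RFC5 (-0.14), PRIM1 (-0.20) and CCND2 (-0.42). MCM10, which helps open replication origins, read 7.81, 7.75 and 7.49 at 12 h and 3.54, 3.61 and 3.54 at 48 h. Its 48 h level was under the floor, so it was at least 12.8-fold lower (adjusted p 1.31e-15).

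Other origin factors and regulators fell without reaching the floor. ORC1, of the origin recognition complex, went from 7.42, 7.45 and 7.38 to 4.37, 5.22 and 4.35 (-2.77 ± 0.28, SE). UHRF1, which maintains DNA methylation through replication, went from 11.01, 11.19 and 10.96 to 8.41, 8.25 and 8.53 (-2.66 ± 0.19, SE; adjusted p 9.36e-12). CCND1, the cyclin D that growth factors induce, read 7.26, 7.26 and 7.21 at 12 h and 5.34, 5.37 and 5.58 at 48 h, and fell by 1.81 with no overlap. The helicase subunits MCM2 to MCM7 fell by 1.09 to 1.6.

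Mitotic and G2/M genes were lower in all 39 measured members, with a median of -1.90 and a range from -3.42 (BLM) to -0.97 (CENPA). MKI67, the proliferation antigen Ki-67, read 9.97, 10.04 and 10.45 at 12 h and 7.66, 7.69 and 7.89 at 48 h, so that every 48 h array was lower by over 2 units. The difference was -2.40 ± 0.17 (SE; 5.29-fold; adjusted p 9.93e-12), and all 4 of its kept probe sets passed in this direction. FOXM1, the factor that drives mitotic genes, went from 8.46, 8.61 and 8.54 to 5.85, 5.95 and 5.32 (-2.83 ± 0.17, SE). The kinetochore proteins NUF2 (-2.83) and CENPE (-2.78), the cytokinesis scaffold ANLN (-2.63) and the helicase BLM (at least 8.33-fold lower) also fell.

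Genes that restrain the cycle were mixed. Of 21 measured CDK inhibitors and antiproliferative genes, 3 were higher (14.3%) and 6 lower (28.6%), with a median of 0.00. These shares were near the 18.3% and 27.3% of all genes. CDKN1A (p21), an inhibitor induced by p53, read 9.42, 9.48 and 9.54 at 12 h and 9.85, 9.88 and 9.92 at 48 h, a small rise of 0.40 ± 0.10 (SE; adjusted p 0.00184). GADD45A rose by 1.32 and the antiproliferative factor BTG1 by 1.07, whereas KLF10, a factor induced by TGF-beta, fell by 1.27.

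The promoters of both falling groups held their own elements. An E2F site, searched as TTTGGCGC or TTTCCCGC on both strands, was in 13 of 35 DNA replication genes with a promoter (37.1%), against 298 of 9184 tested genes (3.24%) and 1.96% of all 27305 promoters. The cell cycle homology region of mitotic promoters, searched as TTTGAA on both strands, was in 17 of 33 mitotic genes (51.5%), against 761 tested genes (8.29%) and 13.6% of all promoters. In turn, the E2F site was in 1 of the 33 mitotic genes and the homology region in 1 of the 35 replication genes. Over the tested genes with an E2F site, 38.9% were lower, and over those with the homology region 34.7%, where 27.8% of all with a promoter were lower. A match in such a window is a description and not a shown binding site.

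Windows are given for members with large falls, with matches on either strand in capitals. They are chr3:48188429-48188486 (minus strand) for CDC25A, chr19:4909462-4909500 (plus strand) for UHRF1, chr10:128126424-128126495 (minus strand) for MKI67, chr7:36389811-36389861 (plus strand) for ANLN and chr15:69414269-69414324 (plus strand) for KIF23. CDC25A and UHRF1 carry the E2F site and the others the homology region, which MKI67 and ANLN hold 2 times.
CDC25A: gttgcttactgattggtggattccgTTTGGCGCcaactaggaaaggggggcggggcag
UHRF1: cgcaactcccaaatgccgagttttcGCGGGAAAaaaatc
MKI67: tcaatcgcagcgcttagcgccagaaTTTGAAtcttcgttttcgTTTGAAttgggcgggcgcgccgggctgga
ANLN: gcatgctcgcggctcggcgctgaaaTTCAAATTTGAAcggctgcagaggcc
KIF23: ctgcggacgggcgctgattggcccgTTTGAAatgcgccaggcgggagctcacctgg

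**Figure D2:**
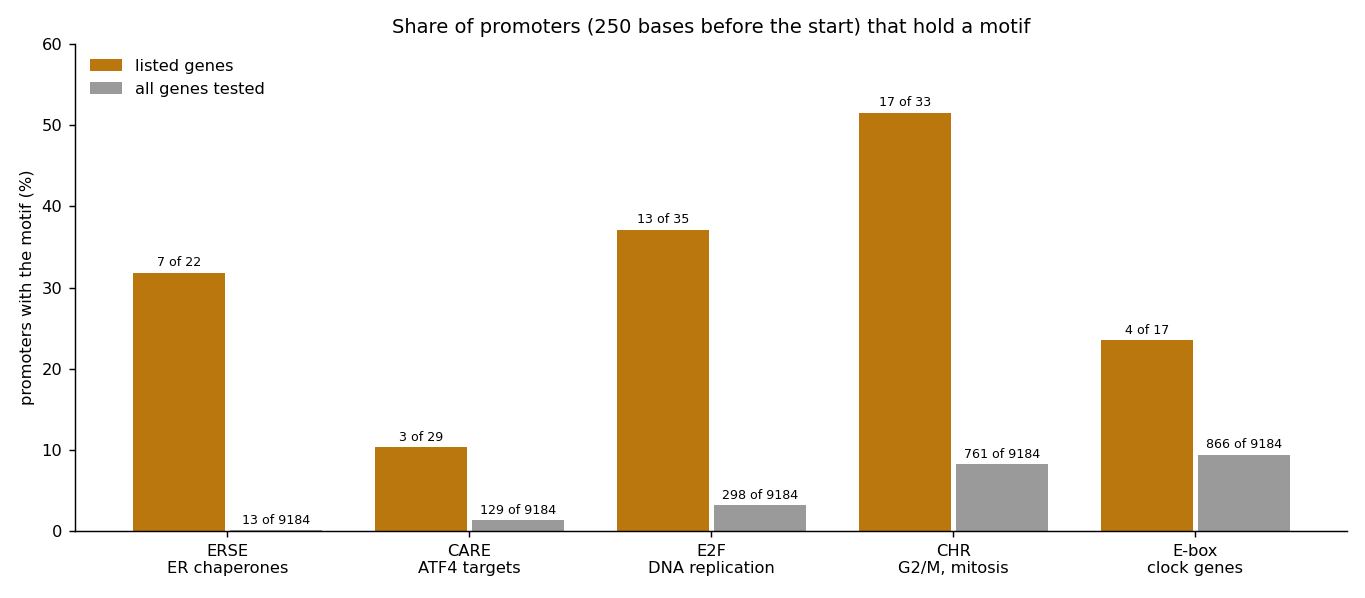
Percent of promoters (250 bases before the RefSeq start, either strand) that hold a motif, for the measured genes of one list (brown) and for all 9184 tested genes with a promoter (grey), with counts above the bars. The ER stress element (ERSE) was in 7 of 22 ER chaperone genes against 13 of 9184, and the cell cycle homology region (CHR) in 17 of 33 mitotic genes against 761 of 9184.

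TXNIP had the largest fall among all genes tested. It encodes an inhibitor of thioredoxin and of glucose uptake, and its transcription follows glucose through the sensor MondoA. It read 9.77, 10.02 and 9.83 at 12 h and 3.15, 4.34 and 3.38 at 48 h. It was at least 58.5-fold lower (adjusted p 3.87e-12), and all 3 of its kept probe sets passed in this direction. ARRDC4, its closest relative and also a MondoA target, went from 4.6, 4.69 and 4.53 to 2.90, 2.99 and 2.96 and was at least 1.52-fold lower, a bound set by the floor. Over the 12 measured FOXO and glucose-sensed genes, the median was -0.03. Of them, 2 rose (16.7%) and 3 fell (25%), beside 18.3% and 27.3% of all genes. PDK4, which keeps pyruvate out of the mitochondria, was the third of these and fell by 1.39 ± 0.24 (SE), from 13.15, 13.33 and 13.19 to 11.81, 12.05 and 11.61.

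Of 35 measured glycolysis and hypoxia genes, 13 were lower and 5 higher, with a median of -0.18, beside 27.3% lower and 18.3% higher among all genes. Enzymes of glycolysis were among the lower members: HK1 fell by 1.2, PKM by 0.92, PGAM1 by 0.82, GPI by 0.70 and LDHA by 0.56. SLC2A1, the main glucose carrier of such cells, differed by 0.19 ± 0.13 (SE; adjusted p 0.245), with overlapping arrays. EGLN3, an oxygen-sensing hydroxylase induced by HIF, was at least 3.67-fold lower. VEGFA, the endothelial growth factor that both HIF and ATF4 induce, went the other way, from 9.48, 9.59 and 9.23 to 11.73, 11.87 and 11.44 (2.25 ± 0.26, SE; 4.75-fold; all 4 probe sets).

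Sterol and fatty acid synthesis genes were lower in 13 and higher in 4 of 25 measured (of 33 listed), with a median of -0.36. FASN, fatty acid synthase, went from 9.23, 9.29 and 9.44 to 7.72, 7.85 and 7.58 (-1.6 ± 0.19, SE; adjusted p 1.22e-07), and the elongase ELOVL6 fell by 1.47. SREBF1, the factor that drives fatty acid synthesis, fell by 0.89 ± 0.20 (SE). STARD4, a cholesterol transporter, rose by 1.0. The higher members numbered 2 without any one of the 12 h arrays or 48 h replicate 2, and 1 without 48 h replicate 3. Fatty acid oxidation and PPAR targets were lower in 7 and higher in 2 of 20 measured. These were 35% and 10%, beside 27.3% and 18.3% of all genes. Among the members were ACSL4 (-0.99) and, in the other direction, PPARA (0.74).

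Genes of the matrix and of the TGF-beta response were lower in 26 of 46 measured members (56.5%) and higher in 1, with a median of -0.52. MMP1, interstitial collagenase, read 7.99, 7.78 and 7.46 at 12 h and 2.83, 3.48 and 3.20 at 48 h, and was at least 13.4-fold lower (adjusted p 2.98e-10). THBS1, thrombospondin, a TGF-beta activator, went from 8.67, 8.98 and 8.98 to 6.02, 6.77 and 6.48 (-2.45 ± 0.33, SE). The plasminogen activator PLAT fell by 2.76 and the urokinase receptor PLAUR by 1.87. The one rise was LOX, the collagen crosslinking oxidase, which went from 7.59, 7.69 and 7.39 to 9.64, 9.66 and 9.71 (2.11 ± 0.45, SE; all 3 probe sets). FN1, fibronectin, differed by -0.13 ± 0.06 (SE; adjusted p 0.0765), and by 0.23 (adjusted p 0.106) with its probe sets averaged.

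Signals that respond to contact and growth factors moved in both directions. YAP/TEAD targets were lower in 10 and higher in 2 of 23 measured, with a median of -0.31. NT5E (CD73) fell by 1.63 and the coactivator WWTR1 (TAZ) by 0.76, while CCN2, a common readout of YAP, differed by -0.21 ± 0.20 (SE; adjusted p 0.409). The lower YAP/TEAD targets numbered 6 after median centring or with probe sets averaged, and 5 without 12 h replicate 2. Of 11 measured EGFR ligands and receptors, 5 rose and 5 fell: the ligand BTC rose by 1.62 ± 0.27 (SE) and EGFR by 0.81, and the ligands TGFA and HBEGF fell by 0.93 and 0.91, the TGFA call being lost with its probe sets averaged. Of this family 3 rose without 12 h replicate 2 or 48 h replicate 1 or 2, and 3 fell without 48 h replicate 3. Immediate early and MAPK feedback genes were higher in 5 and lower in 8 of 24. These were 20.8% and 33.3%, near the 18.3% and 27.3% of all genes. ATF3 is on that list too, SPRY1, a feedback inhibitor of the pathway, rose by 1.24, and FOSL1 was at least 1.88-fold lower. Without 48 h replicate 2, 3 of these genes were higher, and without 48 h replicate 3, 5 were lower.

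Epithelial junction and keratin genes were higher in 10 and lower in 6 of 28 measured, with a median of 0.26. CDH1 (E-cadherin) went from 7.78, 7.60 and 7.11 to 8.29, 8.73 and 8.71 (1.08 ± 0.25, SE; adjusted p 0.000983), and ESRP1, an epithelial splicing factor, from 5.79, 5.55 and 5.71 to 7.80, 7.58 and 7.65 (1.99 ± 0.27, SE). CLDN16, a claudin of paracellular magnesium transport in the thick limb, rose by 2.45 ± 0.37 (SE). CDH6, the cadherin of proximal tubule precursors, fell from 12.88, 12.83 and 12.82 to 11.35, 11.69 and 11.15 (-1.45 ± 0.22, SE; all 6 probe sets). CLDN2, the leaky claudin of the proximal tubule, fell by 1.12 ± 0.23 (SE). KRT7 (0.41) and KRT19 (-0.25) did not pass, and 3 genes of the list were lower without 48 h replicate 1.

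Proximal tubule genes were mostly too dim to follow. Of 46 listed genes with a probe set of their own, 17 were above the floor on all 6 vehicle arrays and 28 below it on all 6. Among the latter were SLC34A1, SLC5A2, LRP2, CUBN and AQP1, which define the differentiated segment. SLC4A4, GATM and DPP4 were among the 17 above it. Of the 20 measured in the comparison, 5 rose and 5 fell, with a median of 0.12. These were 25% each, beside 18.3% and 27.3% of all genes. SLC4A4, the basolateral bicarbonate exporter, rose from 12.20, 12.27 and 12.08 to 12.86, 12.92 and 12.87 (0.70 ± 0.23, SE; adjusted p 0.0146, and 0.0506 without 12 h replicate 3). The glucose carrier SLC2A2 was at least 1.81-fold lower. SLC3A1, the cystine carrier subunit, differed by 0.10 ± 0.26 (SE).

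Injury markers were higher in 4 and lower in 4 of 22 (18.2% each, beside 18.3% and 27.3% of all genes). LCN2 (NGAL), a secreted marker of tubular damage, was under the floor at 12 h (3.72, 3.75 and 3.72) and read 6.00, 5.54 and 5.78 at 48 h, at least 3.42-fold higher (adjusted p 6.39e-13). HAVCR1 (KIM-1) rose by 0.48 ± 0.16 (SE; adjusted p 0.0186), a call that was lost without 12 h replicate 1 or 3 or 48 h replicate 2 (0.40 to 0.41). SOX9, a repair factor, fell by 1.99 ± 0.30 (SE), CD44 by 1.34, and VCAM1 differed by -0.31 (adjusted p 0.403). Without 12 h replicate 3 or 48 h replicate 2, 2 injury markers were higher. Of 7 measured nephron lineage factors, SALL1 (-1.24) and TFAP2A (-0.48) fell and MAF (0.38) rose, a call lost without the filter, with probe sets averaged, and without 12 h replicate 2 or 48 h replicate 1 or 2.

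Markers of other cell types differed by list. All 12 leukocyte markers with a probe set lay below the floor on all 6 arrays, as did 10 of 12 endothelial markers and 16 of 18 distal nephron markers. Above the floor on all 6 were 4 of 8 podocyte markers (SYNPO, PODXL, PTPRO and CD2AP). So were 4 of 11 fibroblast markers (COL1A1, DCN, LUM and ACTA2). The summed log2 level of fibroblast markers was 12.4 to 12.5 at 12 h and 11.4 to 11.5 at 48 h. Of its 4 measured members, LUM (-1.14), DCN (-1.03) and COL1A1 (-0.77) fell, while PDGFRA, PDGFRB, COL1A2 and THY1 were below the floor throughout. The summed level of podocyte markers was 13.9 to 14.0 at 12 h and 13.6 to 13.9 at 48 h, with PTPRO, also found in epithelia, lower by 0.50. Neither of the 2 measured endothelial markers passed (median 0.33), and of 3 distal markers SCNN1A rose by 0.46. Single arrays moved these small counts: 3 podocyte markers were lower without 12 h replicate 1, 1 distal marker lower without 12 h replicate 3, and 1 endothelial marker higher without 48 h replicate 1. All samples are labelled HK-2, a single cell line. Fewer of its cells holding these messages and less message per cell cannot be told apart in samples of whole cultures.

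Other stress programmes did not share the direction of the ATF4 and ER genes. NRF2 targets, which respond to oxidants, were higher in 7 and lower in 12 of 33, with a median of -0.04. These were 21.2% and 36.4%, beside 18.3% and 27.3% of all genes. The rises were led by SLC7A11 and SQSTM1 (1.19), which ATF4 also induces, while AKR1C1 (-1.64), AKR1C2 (-1.2), NQO1 (-0.77) and GSR (-0.73) fell. HMOX1, haem oxygenase 1, read 8.10, 8.08 and 7.76 at 12 h and 8.10, 8.21 and 8.21 at 48 h, and did not pass (adjusted p 0.439). AKR1C1 and AKR1C2 are near-identical in sequence, so their probe sets may share signal.

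Metallothioneins and zinc genes were lower in 9 and higher in 5 of 18. MT1X, a metal-binding protein, fell from 13.24, 13.31 and 13.24 to 12.54, 12.50 and 12.66 (-0.70 ± 0.14, SE), and MT1M fell by 1.58, in a family whose members are alike enough to share signal. The zinc importer SLC39A14 rose by 1.58 and SLC39A10 fell by 1.59. Heat shock genes of the cytosol were lower in 12 and higher in 2 of 22, with a median of -0.34: HSP90AA1 fell from a mean of 14.92 to 14.23 (-0.69 ± 0.08, SE), and its co-chaperone BAG3 by 0.99. The closest relative of HSP90AA1, HSP90AB1, went the other way and rose by 0.72 ± 0.19 (SE; adjusted p 0.00294), a call lost with probe sets averaged (0.19), with only the groups compared (0.72) and without 12 h replicate 2 (0.43). The higher heat shock genes numbered 1 without 12 h replicate 2 or 48 h replicate 1.

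Proteasome subunits were lower in 20 of 27 (74.1%) and higher in none, with a median of -0.40, and 12 were lower after median centring. PSMD1 fell by 1.17 and PSMD2 by 0.86. Lysosome and autophagy genes were higher in 15 and lower in 3 of 37, with a median of 0.27. WIPI1, which builds autophagosomes, rose from 8.12, 8.42 and 8.36 to 10.36, 10.11 and 10.35 (1.97 ± 0.16, SE), and MAP1LC3B (LC3) rose by 1.25. GLA, a lysosomal galactosidase, fell by 1.16.

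Of 24 measured p53 targets, 10 were higher and 7 lower, with a median of -0.09. GDF15, a secreted stress cytokine that ATF4 also induces, rose from 10.38, 10.25 and 10.30 to 12.63, 12.58 and 12.66 (2.31 ± 0.19, SE; adjusted p 1.27e-10), and TNFRSF10B, a death receptor that DDIT3 induces, by 1.04. DDB2, a repair gene, fell by 0.87. In the BCL2 family 4 of 15 rose and 1 fell: PMAIP1 (NOXA) rose by 0.82, HRK was at least 1.06-fold higher, and BID fell by 0.76. Without 12 h replicate 2 or 48 h replicate 1 or 2, 2 of the family were higher, and without 12 h replicate 2, 2 were lower.

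Inflammatory genes moved little as a group. NF-kB targets and cytokines were higher in 4 and lower in 2 of 25, with a median of 0.00. CXCL8 (interleukin 8) read 13.38, 13.46 and 13.31 at 12 h and 13.23, 13.29 and 13.17 at 48 h and did not pass (adjusted p 0.556). IL6 differed by -0.84 ± 0.53 (SE; adjusted p 0.199). TNFSF10 (TRAIL) fell by 1.36. Interferon-stimulated genes were higher in 6 and lower in 6 of 29 (20.7% each, beside 18.3% and 27.3% of all genes). OAS3 fell by 1.73 and GBP1 by 1.37, while IRF1 rose by 1.36 and IRF9 by 1.2. Of this list 3 were lower after median centring or without 12 h replicate 3. Acute phase and complement genes were higher in 4, LCN2 and CD55 (1.52) among them, and lower in 3 of 12, with 2 higher without 12 h replicate 3 or 48 h replicate 1 or 2. The higher NF-kB targets numbered 2 without 12 h replicate 3 or 48 h replicate 2 or 3. Glucocorticoid-responsive genes were higher in 3 and lower in 5 of 14 (21.4% and 35.7%, beside 18.3% and 27.3% of all genes). TSC22D3 (GILZ) rose by 1.92 ± 0.38 (SE). SGK1, a kinase of sodium transport, fell from 13.50, 13.54 and 13.31 to 12.44, 12.55 and 12.40.

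Respiratory chain and ATP synthase genes were lower in 20 of 39 (51.3%) and higher in 1, with a median of -0.24. ATP5MC1, a ring subunit of ATP synthase, fell by 1.39 ± 0.14 (SE), SDHA of complex II by 0.90 and PPARGC1A, the coactivator of mitochondrial genes, by 0.88. Of this list 0 were higher without any one array other than 12 h replicate 1. Ribosome biogenesis genes were lower in 12 and higher in 1 of 31, with RRP1B lower by 1.0. Iron handling genes were higher in 5 and lower in 2 of 13, and the lower ones numbered 1 after median centring and 0 with probe sets averaged. Notch and Wnt genes were higher in 1 and lower in 3 of 19, with the Notch target NRARP lower by 1.04 and 0 higher without 12 h replicate 2 or 48 h replicate 1.

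Circadian clock genes were higher in 7 and lower in 1 of 18, with a median of 0.04, and 4 were higher without 12 h replicate 2 or 3 or 48 h replicate 2. PER2, a repressor of the clock, read 5.19, 4.94 and 4.91 at 12 h and 7.22, 7.57 and 7.40 at 48 h (2.38 ± 0.35, SE; adjusted p 3.07e-06). NR1D2 (REV-ERB beta) rose by 1.89 ± 0.22 (SE), while BMAL2 fell by 1.26. The clock factor DBP was at least 1.06-fold higher, a bound set by the floor, and differed by -0.016 without the filter on dim probe sets, when another probe set was read. The E-box of clock genes, CACGTG, was in 4 of the 17 clock genes with a promoter (23.5%) and in 9.43% of tested genes and 6.49% of all promoters. With only 2 times sampled, a rise with time in culture and a phase of a daily rhythm cannot be told apart.

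Several of the largest changes lay outside these lists. LAMP3, a lysosomal protein known to be induced by the ER stress response, read 2.34, 2.35 and 2.35 at 12 h and 6.64, 6.55 and 6.64 at 48 h, at least 6.11-fold higher (adjusted p 1.10e-25). SCG5, a chaperone of a prohormone convertase, was at least 5.32-fold higher, and BEX2, a small brain-expressed protein, rose by 4.28 ± 0.37 (SE), from 7.22, 6.99 and 7.01 to 11.38, 11.38 and 11.31. DNAJC12, a cytosolic co-chaperone, rose by 3.23 and LRRC49 by 3.52. Among the falls, TNFAIP6, a hyaluronan-binding protein, was at least 5.48-fold lower, the sodium channel SCN3A at least 8.57-fold and the calcium pump regulator SLN at least 7.60-fold. The neuropeptide gene GAL fell by 3.13 ± 0.47 (SE). The repair and chromosome genes DDIAS (-3.0), EXO1 (-2.98), SPC25 (-3.02) and NCAPH (-2.93) also fell, and CCNA1, ASB5 and ALDH8A1 reached the floor.

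**Figure D3:**
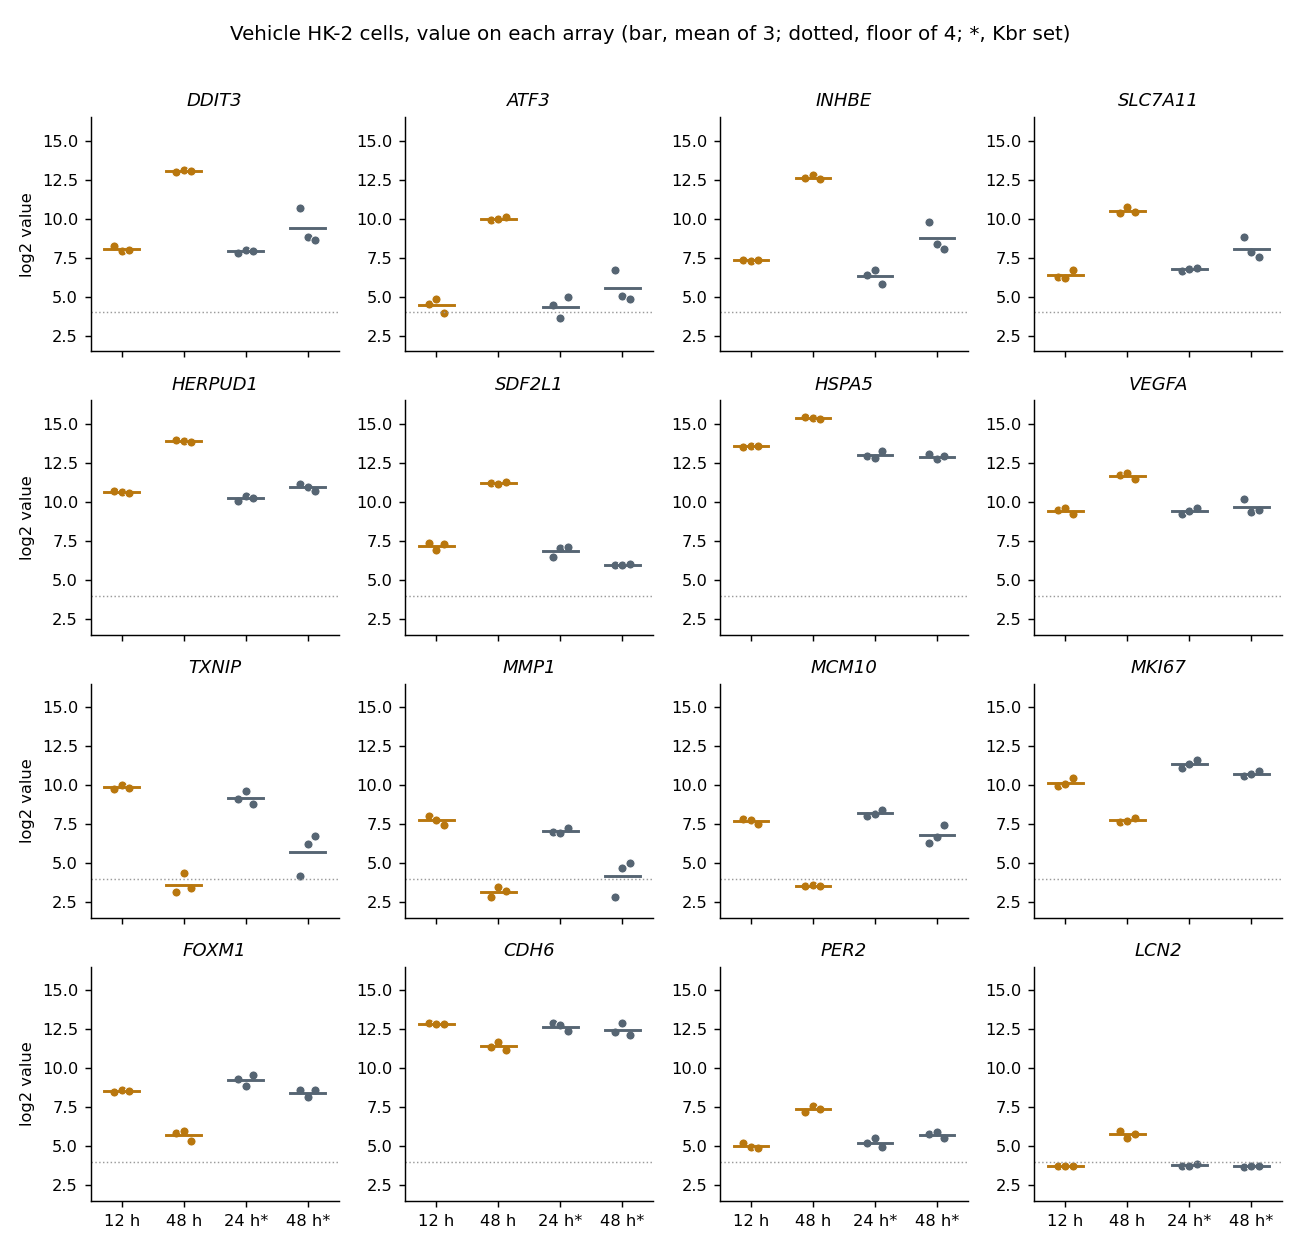
Log2 values of 16 genes on each vehicle array (points) with group means (bars), for 12 h and 48 h of the CdCl and Di set (brown) and 24 h and 48 h of the Kbr set (grey, starred), with the floor of 4 dotted. DDIT3 stood at 13.00 to 13.11 on the 48 h arrays of the first set and at 8.64 to 10.68 on those of the second, whereas TXNIP fell in both sets.

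Vehicle cells of the Kbr set gave the same question in other arrays, from 24 h to 48 h. There 1358 genes (12.2%) passed, 564 (5.08%) higher and 794 (7.16%) lower at 48 h. This count depended on the fit. With the replicate numbers as a block, taken from the data alone to pair these arrays, it was 2498. Without 24 h replicate 3 it was 387, without 48 h replicate 1 561 and without 48 h replicate 2 785. It was 767 with array weights and 4 (4 higher, 0 lower) with only the groups compared, and median centring gave 650 higher and 585 lower genes. The shares that follow rest on the 1358. Genes lower in both series numbered 611, which is 20.2% of those lower from 12 h and 77.0% of those lower from 24 h. Genes higher in both numbered 311, or 15.3% and 55.1% of the respective lists, and 16 and 30 genes passed in opposite directions. Across the 11092 genes the 2 changes correlated at r = 0.54 (rho = 0.52), a description over genes, which are not independent.

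The groups of genes differed in how far they were shared. Of the 39 mitotic genes 30 also fell from 24 h to 48 h (median -0.65), and of the 42 replication genes 22 did (median -0.43). With the replicate block these counts were 35 and 27. Of the 26 ER genes limma passed 0 in either direction there (median -0.08). At an unadjusted p under 0.05, 1 ER gene was higher and 2 lower, and with the replicate block 0 were higher and 2 lower. Of the 36 ATF4 targets 5 rose (median 0.27), and 7 with the block. The difference of the 2 changes was tested directly and passed for 2207 genes (19.9%), or 3105 with the replicate block. Of the 2207, 856 were more positive and 1351 more negative in the 12 h to 48 h series. After median centring these were 1034 and 1071. Without the block, the difference passed for 23 of 26 ER genes, 23 of 36 ATF4 targets and 38 of 39 mitotic genes. The starting time, the set and the arrays all differ between the 2 series and cannot be told apart.

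Single genes show both patterns. TXNIP read 9.11, 9.64 and 8.80 at 24 h and 4.16, 6.24 and 6.71 at 48 h in the Kbr set, a fall of 3.48 (adjusted p 1.12e-05), with all 48 h arrays lower. MMP1 also fell there, by 2.89, SLN by 3.13 and TNFAIP6 by 2.87. DDIT3 read 7.81, 8.0 and 7.94 at 24 h and 10.68, 8.86 and 8.64 at 48 h, higher in each of the 3 pairs of one replicate number, and 48 h replicate 1 was the highest. The difference of 1.48 did not pass in limma without the pairs (adjusted p 0.0973) and passed with the replicate block (adjusted p 0.0351). In the same array CHAC1 stood at 6.8 against 4.23 and 4.0 in the other 2, and VEGFA at 10.15 against 9.33 and 9.49. CHAC1 likewise passed with the block alone (1.24; adjusted p 0.0311, against 0.111 without it). SDF2L1 read 6.44, 7.05 and 7.11 at 24 h and 5.92, 5.98 and 5.99 at 48 h, lower in each of the 3 pairs, a difference of -0.91 that did not pass (adjusted p 0.29, and 0.207 with the block), opposite to its rise of 4.02 in the first series, and the difference between the series was 4.92 (adjusted p 3.25e-05). LAMP3 and SCG5 stayed under the floor on all 6 arrays of that set.

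**Figure D4:**
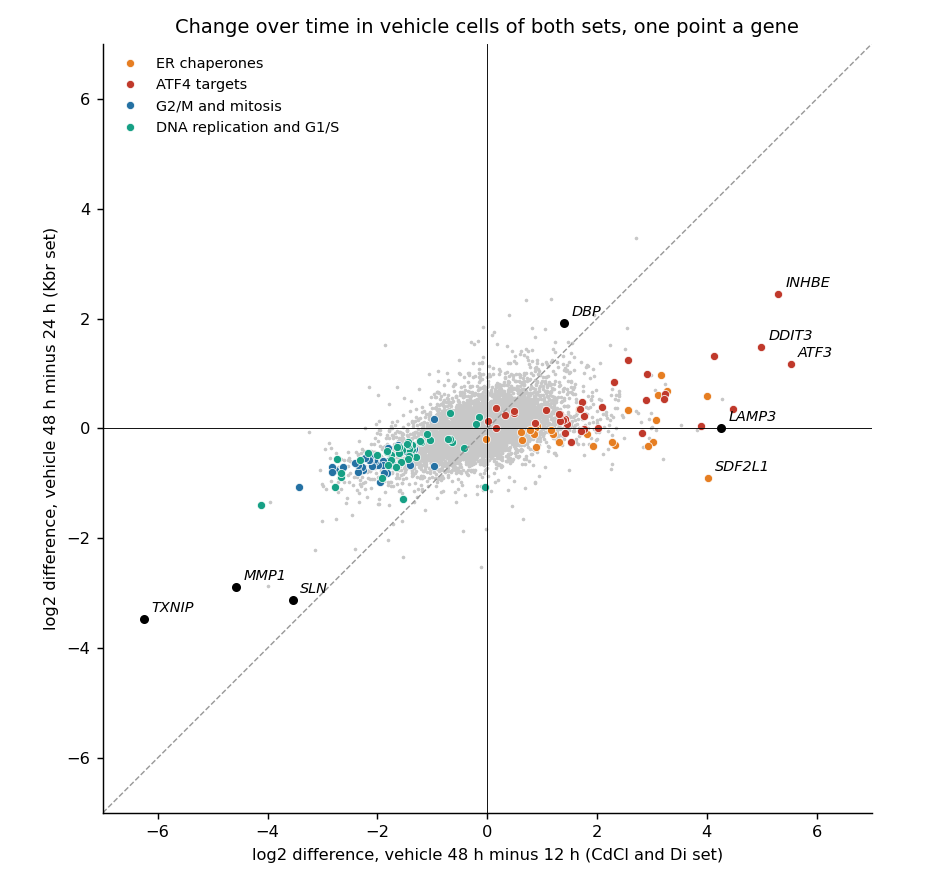
Each point is a gene, with its log2 difference between 48 h and 12 h in vehicle cells of the CdCl and Di set (horizontal) and between 48 h and 24 h in vehicle cells of the Kbr set (vertical), and the dashed line marks equal changes. Mitotic and replication genes (blue and green) are negative on both axes, with 30 of 39 and 22 of 42 lower past the test on the vertical one, while ER chaperones (orange) spread along the horizontal axis at a vertical median of -0.08.

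The change over time in vehicle cells can be set beside that of cells given CdCl or Di, which were sampled at the same times. The 12 h to 48 h change under CdCl differed from that under vehicle for 2687 genes (24.2%), 1824 more positive and 863 more negative, or 1047 and 1256 after median centring. Under Di it differed for 3212 genes (29%), 1671 and 1541. TXNIP fell by 5.98 under CdCl and by 5.41 under Di beside the vehicle fall, and neither difference from vehicle passed (adjusted p 0.789 and 0.327). MKI67 fell by 2.20 under CdCl, not shown to differ from vehicle (adjusted p 0.594), and by 3.39 under Di, further than under vehicle (-0.98 ± 0.25, SE; adjusted p 0.00311).

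From 12 h to 48 h, 52.5% of genes passed under CdCl and 58.6% under Di, against 45.7% under vehicle. Under CdCl 28.8% of all genes were higher and 23.6% lower, and under Di 28% and 30.6%. ER genes rose in 23 of 26 under CdCl (median 1.09) and 26 of 26 under Di (2.04), and ATF4 targets in 20 of 36 (0.95; 2 fell) and 32 of 36 (1.91). All 39 mitotic genes fell in both arms, by medians of 1.86 and 2.96. NRF2 targets, mixed under vehicle and lower in 14 of 33 under CdCl, rose in 30 of 33 under Di. For single stress genes each compound was set against vehicle, and CdCl was not tested against Di. ATF3 was already at 11.64 ± 0.05 (SD, n = 3) at 12 h under CdCl and at 11.95 ± 0.07 at 48 h, a difference of 0.31 ± 0.69 (SE) that did not pass (adjusted p 0.741). The vehicle change was larger than that of CdCl, with a CdCl minus vehicle difference of -5.21 ± 0.98 (SE; adjusted p 0.000336). Under Di it went from 5.27 ± 0.68 to 12.95 ± 0.05 (SD, n = 3), a rise of 7.68 that was not shown to differ from the vehicle's (2.15 ± 0.98, SE; adjusted p 0.1). At 48 h DDIT3 stood at 13.06 ± 0.06 under vehicle, 13.29 ± 0.15 under CdCl and 13.49 ± 0.12 under Di (SD, n = 3), and HSPA5 at 15.36 ± 0.08, 15.56 ± 0.03 and 15.63 ± 0.09. At 12 h DDIT3 was at 8.07 under vehicle and 11.80 under CdCl, so the gap between these 2 groups was far larger at the early time.

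Other genes changed in one direction under vehicle and another, or further, under the compounds. SLC4A4 rose by 0.70 under vehicle and fell by 2.43 under CdCl and 2.22 under Di, and both differences from vehicle passed (adjusted p 1.18e-07 and 9.21e-08). CLDN2 fell by 1.12, 3.80 and 6.86 under vehicle, CdCl and Di, and CDH6 by 1.45, 3.10 and 4.89, in each case further under the compounds past the test. PER2, which rose by 2.38 under vehicle, differed by 0.08 under CdCl and 0.21 under Di (adjusted p of the difference from vehicle 0.00134 and 0.00138). HMOX1 differed by 0.19 under vehicle and rose by 4.89 under Di.

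**Figure D5:**
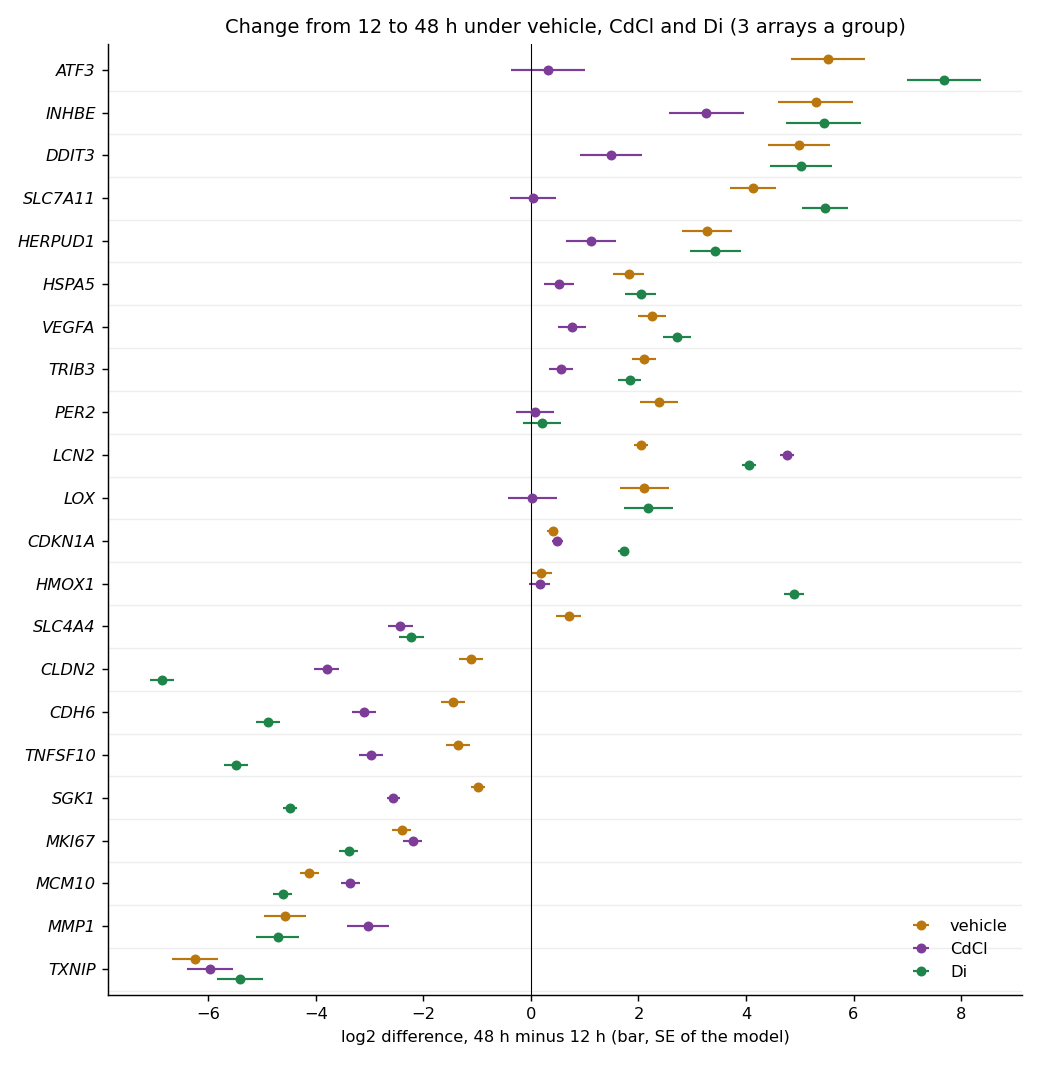
Log2 difference between 48 h and 12 h (horizontal axis) for 22 genes under vehicle (brown), CdCl (purple) and Di (green), 3 arrays a group, with bars for the SE of the model. TXNIP lies between -6.25 and -5.41 in all 3 arms, whereas ATF3 rose by 5.52 under vehicle and 7.68 under Di and changed by 0.31 under CdCl.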

How the data were processed

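The assay was a single-colour Affymetrix expression array, hybridised with labelled cRNA made from total RNA of 36 samples, per the labels. GEO holds a log2 value for each probe set, which the authors computed with GCRMA, per the submitters' processing notes, in a version not given in the sources used here. As commonly run, GCRMA subtracts background by probe sequence and forces one distribution on all arrays, so dim differences are uncertain and shifts of most genes together are reduced.

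Groups, replicate numbers and times came from the sample descriptions. Of 54675 probe sets, 23599 were above 4 on at least 3 of 36 arrays, and 3155 of these that list several genes or none were left out. The brightest probe set on average stood for its gene, which left 11092 genes. One model with 12 group means covered all 36 arrays in limma 3.58.1 under R 4.3.3 (lmFit and eBayes), with Benjamini-Hochberg adjustment and a threshold of 0.05. SEs are those of the model. Folds against a group whose mean lay below the floor of 4 use that floor and are written "at least". The tests were checked on simulated data with known changes in few genes and independent noise. The real arrays, with 45.7% of genes passing and pairs in the Kbr set, differ from that setting.

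The 39 gene lists and the genes to name were chosen with earlier results of these data known, so their directions are no independent evidence. Named genes were, among those past the test with groups that do not overlap, the 15 that rose and 15 that fell furthest, the 5 largest passing changes of each list and 33 index genes, of which 30 were measured, and some of these are given only by count. Other genes named as list members or motif examples were picked after their values were seen. Promoters were RefSeq sequences (GRCh38.p14), given here for 9184 tested genes.

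In the Kbr set, vehicle arrays of one replicate number deviated together (r = 0.50, 0.57 and 0.53), so the numbers were taken to pair them, from the data alone. Other settings left the filter out or set it at 6, added a trend to the variance, normalized by quantiles, centred arrays on their medians, averaged probe sets, weighted arrays, took the replicate number as a block, fitted the compared groups alone, or left out each array. One more, the 18 arrays of the CdCl and Di set alone, was chosen after seeing the data.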

Additional observations from a re-analysis of the deposited data

Results flagged for a closer look

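Results are given here where the change over time differed between 2 groups of cells in the test of the difference itself. From 12 h to 48 h against 24 h to 48 h in vehicle cells of the Kbr set, 2207 genes differed. From 12 h to 48 h, 2687 genes differed between CdCl and vehicle and 3212 between Di and vehicle.

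Among the index genes, the vehicle change from 12 h minus that from 24 h of the Kbr set was 3.51 for DDIT3, 4.35 for ATF3, 1.24 for ATF4, 1.71 for TRIB3, 2.37 for ASNS, 1.92 for HSPA5, 2.00 for VEGFA, 2.11 for LCN2, 0.57 for CDKN1A and 0.83 for SLC2A1. It was negative for TXNIP (-2.77), MKI67 (-1.77), CDH6 (-1.23) and CLDN2 (-1.08).

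The CdCl change minus the vehicle change was negative for DDIT3 (-3.50), ATF3 (-5.21), ATF4 (-0.81), TRIB3 (-1.53), HSPA5 (-1.30), SLC2A1 (-1.02), VEGFA (-1.49), HAVCR1 (-1.62), VCAM1 (-3.02), SLC4A4 (-3.14), SLC3A1 (-1.52), CDH6 (-1.66) and CLDN2 (-2.68). It was positive for LCN2 (2.72), MT1X (0.75) and FN1 (0.38).

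The Di change minus the vehicle change was positive for CDKN1A (1.32), CCND1 (1.91), SLC2A1 (1.59), LCN2 (2.02), HMOX1 (4.70), CXCL8 (1.12), CCN2 (1.06) and FN1 (0.46). It was negative for MKI67 (-0.98), HAVCR1 (-2.58), VCAM1 (-4.02), SLC4A4 (-2.93), SLC3A1 (-2.36), CDH6 (-3.44), CLDN2 (-5.74), MT1X (-1.41), KRT19 (-1.14) and CDH1 (-1.05).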

How the results depend on the processing

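Under the 10 other settings the count of genes that differed between 48 h and 12 h was 4736 to 6471, and 4398 to 4515 with 1 array left out. Of 192 named genes past the test, 167 kept their call in all 16 settings. With a gene's probe sets averaged, TEAD1 turned to 0.021 and FN1 to 0.23. Without a filter DBP turned to -0.016. With single arrays left out SLC3A1 was -0.0055 (without 12 h replicate 2) to 0.165. Proteasome subunits lower numbered 12 after median centring, which shifts every difference by 0.09. Whether that shift accounts for the count was not tested. The replicate block, in which numbers do not pair the vehicle arrays of this comparison (r = -0.01, 0.06 and 0.13), gave 5843 genes and 7 lower injury markers in place of 4. For vehicle cells of the Kbr set, 1358 genes became 4 with only the groups compared, for a reason that was not tested. Fitting the compared groups alone gave 5821 genes in place of 5064 for vehicle cells at 48 h against 12 h. The Kbr set count was 2498 with the replicate block, 767 with array weights and 387 to 1765 with 1 array left out. With array weights the changes that differed from vehicle numbered 4399 for CdCl and 4860 for Di, and the cause was not tested. Values near the floor of 4 limit what can be said of dim genes.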
